A study of Sus scrofa with 24 samples.

Results

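The nuclear genes for respiratory complexes II to V were followed in the hippocampus of piglets that differed in birth size and in the fat of their formula. A gene was taken as a member when its pig symbol was SDHA, SDHB, SDHC, SDHD, CYC1 or CYCS, or began with UQCR, COX4, COX5, COX6, COX7, COX8 or ATP5. This rule found 32 of the 38882 genes listed in each library. It uses symbols and no measured value, but it was set with earlier results of these data known. They comprised 4 genes of complex II, 2 of complex III, CYCS, 8 of complex IV and 15 of complex V. The remaining 2, ATP5S and ATP5SL, carry an ATP5 symbol but are not subunits of the enzyme. Several subunits, among them CYC1, UQCRC1 and COX4I1, were not paired with an identifier in the name table and were not analysed here, and the same holds for the subunits that the mitochondrial genome encodes.

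RNA was sequenced from the hippocampi of 24 piglets at 14 days of age, all PIC Camborough × PIC 359. A design of 2 sizes by 2 diets gave 4 groups of 6 piglets, named here by size and diet (AGA CON and so on). SGA piglets were small and AGA piglets appropriate in weight for gestational age. CON was a control formula with its fat as triglyceride oils, soy oil among them. HF was a hydrolyzed fat formula without soy oil that also held free fatty acids, a monoacylglycerol, lecithin and cholesterol. Both were fed from 2 days of age, at first blended with a very low fat formula. Each SGA piglet was paired with a sex-matched AGA littermate that received the same formula, so the libraries form 12 litters, 6 per diet, in 2 cohorts of 6 litters (replicates 1 to 3 and 4 to 6). SGA status in this model rests on birth weight within natural litters, and no growth restriction was imposed.

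The respiratory chain passes electrons from food-derived fuels to oxygen and stores the released energy as a proton gradient across the inner mitochondrial membrane. Complex II feeds in electrons from succinate, complex III hands them to cytochrome c, complex IV reduces oxygen with them, and complex V lets the protons flow back to make ATP. Neurons depend heavily on this supply for pumping ions and for synaptic transmission, and the hippocampus is a region of dense synapses that serves learning and memory. Nearly all subunits are encoded in the nucleus, in genes that are often regulated together.

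Reads counted on genes ranged from 6017336 to 9284355 per library, so that 3 counts corresponded to 0.323 to 0.499 CPM (reads scaled to the library total), and this floor covers counting error only. Of 7 listed neuronal markers 6 were found and none was at 0, but these mark neurons in many brain regions, so the hippocampal origin itself was not tested. The sum of these 6 markers was lowest in AGA CON replicate 2 (4467 CPM) and next lowest in AGA HF replicate 4 (5708 CPM), while the other 22 libraries held 7043 to 10940 CPM. Within its group AGA CON replicate 2 also had the highest sums of astrocyte, microglia, endothelial, mural cell and choroid plexus markers. SGA HF replicate 4 stood apart in another way, because its pituitary hormone markers summed to 361 CPM against at most 36.7 CPM in any other library. Choroid plexus markers summed to 174 CPM in SGA CON replicate 1 (group median 66.8 CPM), and no fit without this library was run. Where leaving out AGA CON replicate 2 or SGA HF replicate 4 changed a call or a count of members by over 1.5 times, the value without it is given beside the result.

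Of the 32 genes, 31 reached 1 CPM in at least 3 libraries and were tested, and 27 averaged at least 10 CPM. ATP5J, for the coupling factor 6 subunit of the ATP synthase stalk, had 0 counts in all 24 libraries. Counting error alone would allow up to 0.323 to 0.499 CPM per library, but whether its reads were lost to a near-identical copy was not tested, so 0 counts sets no limit on its expression. Levels were compared between genes as CPM per kilobase of exon, since a longer transcript yields more reads. Any order by this measure depends on the annotated exon lengths, whose accuracy was not tested. ATP5I (280 bases) and ATP5E (2069 bases) had 122 and 128 CPM, but 437 and 61.9 CPM per kilobase. The spread among the members was wide, from 690 CPM per kilobase for COX6A1 to 0.52 for ATP5SL.

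Within complex IV, the cytochrome c oxidase, COX6A1 (the ubiquitous form of subunit 6A) held the top level at 690 ± 86 CPM per kilobase (mean ± SD, n = 24). COX5B, a zinc-binding nuclear subunit, followed at 492 ± 65 CPM per kilobase, then COX6B at 398 and COX6C at 375. COX7A2, the ubiquitous form of subunit 7A, was at 261 ± 39 CPM per kilobase, and its heart and muscle counterpart COX7A1 at 61.4 ± 11. The ratio of COX7A1 to COX7A2 per length had a median of 0.229 and ranged from 0.175 to 0.390 over the 24 libraries. COX8H, the heart and muscle form of subunit 8, came last at 3.32 ± 1.6 CPM per kilobase, from 1 to 15 counts per library, close to the detection floor.

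Within complex V, the ATP synthase, the membrane subunit gene ATP5I led with 437 ± 45 CPM per kilobase. Next came ATP5B at 368 ± 40 and ATP5G3 at 309 ± 31 CPM per kilobase, which differed by more than the SD of either. ATP5O (306) and ATP5D (297) differed from ATP5G3 by less than their SDs, and ATP5A1 (250) lay below them. ATP5A1 and ATP5B code for the alpha and beta subunits that form the catalytic head. The c subunit of the rotating ring is encoded by 3 genes, which share the mature protein while differing in its targeting sequence. Of these, ATP5G3 was the most abundant, ATP5G1 reached 106 ± 15 CPM per kilobase, and ATP5G2 only 3.91 ± 1.9. Per length, the ratio to ATP5G3 had a median of 0.341 for ATP5G1 and 0.0109 for ATP5G2.

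In complex II, the succinate dehydrogenase, the iron-sulfur subunit gene SDHB stood at 230 ± 21 CPM per kilobase. The membrane anchors SDHC and SDHD stood at 63.0 ± 5.4 and 47.5 ± 5.8, and the flavoprotein gene SDHA at 56.8 ± 6.2 CPM per kilobase. SDHA, SDHC and SDHD lay near each other, and SDHA differed from SDHC by about its SD. The SDHA entry is a fragment of 3 exons and 327 bases on an unplaced sequence, and it overlaps the exons of another gene on the same strand, so its value is uncertain. ATP5C1, for the gamma subunit of the ATP synthase, is likewise a fragment of 348 bases. The entries of ATP5H (241 bases) and UQCRB (273 bases) are shorter still, and whether they are whole was not tested. Complex III was represented by UQCR10 and UQCRB, both small structural subunits, at 262 ± 32 and 43.1 ± 7.5 CPM per kilobase. CYCS, the mobile carrier between complexes III and IV, was at 136 ± 18 CPM per kilobase (1280 bases of exon).

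**Figure D1:**
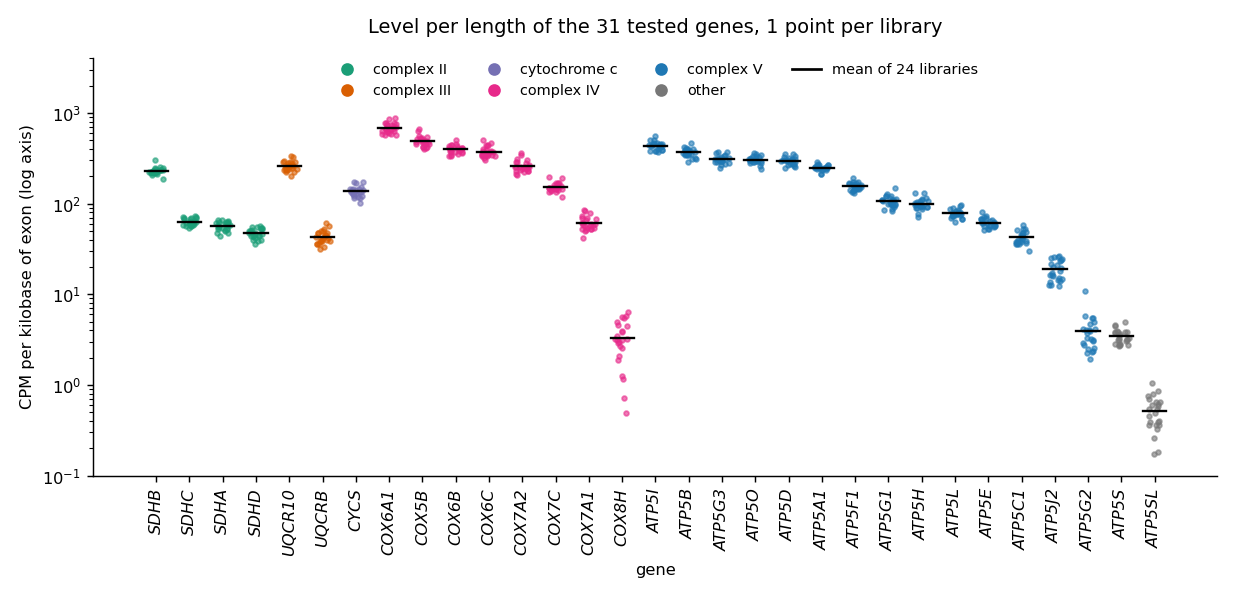
Level of each of the 31 tested genes in CPM per kilobase of exon on a log axis, with 1 point per library (24 libraries), a line at the mean and colours for the complexes. COX6A1 has the highest mean, at 690 CPM per kilobase, and COX8H, ATP5G2, ATP5S and ATP5SL have means under 4 CPM per kilobase.

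The variation of these genes between piglets was set beside that of all genes tested. For the 27 members that averaged at least 10 CPM, the coefficient of variation over all 24 libraries had a median of 11.8%, from 6.58% for ATP5A1 to 25.7% for ATP5J2. The median over all 9071 tested genes with at least 10 CPM was 13.6%, and the sets were not matched for level beyond this minimum.

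The first comparison asked whether birth size altered the expression of these genes. In SGA piglets, 26 of the 31 genes were lower and 5 higher than in AGA piglets, with a median log2 fold change of -0.08 against -0.002 over all 16326 genes tested. All 14 tested genes of complex V and all 8 of complex IV had a negative fold change, whereas complexes II and III were divided, 2 of 4 and 1 of 2 lower. The counts for complexes V and IV were the same with DESeq2 size factors, 13 and 7 with 0 surrogate variables, and 9 and 6 in cohort 2 alone. The differences were small, and with edgeR's quasi-likelihood test, Benjamini-Hochberg adjusted over 7 contrasts together, 0 of 31 members had an FDR under 0.4, a threshold passed by 0.478% of all genes. At an unadjusted p under 0.05, 9 members were lower and 0 higher, against 4.95% of all genes lower and 5.6% higher. In bulk tissue, fewer cells of a type and less RNA per cell cannot be told apart.

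Leaving out AGA CON replicate 2 gave 27 lower members and a median of -0.07, with 6 lower members at an unadjusted p under 0.05 in place of 9. Leaving out SGA HF replicate 4 gave 26 lower members and a median of -0.08. Read against gene length, 21 of the 32 members have under 1000 bases of exon, and among all 2320 tested genes of that length 58.5% were lower in SGA, with a median log2 fold change of -0.04 (83.9% and -0.08 for the members). The 40 genes for subunits of complex I gave a similar count in the same fit, with 35 of 39 tested lower and a median of -0.06. The average RNA quality number of the samples was only near the middle of its scale, which the paper attributes to pre-spliced RNA. The part of RNA quality in levels per length or in differences by gene length was not tested.

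**Figure D2:**
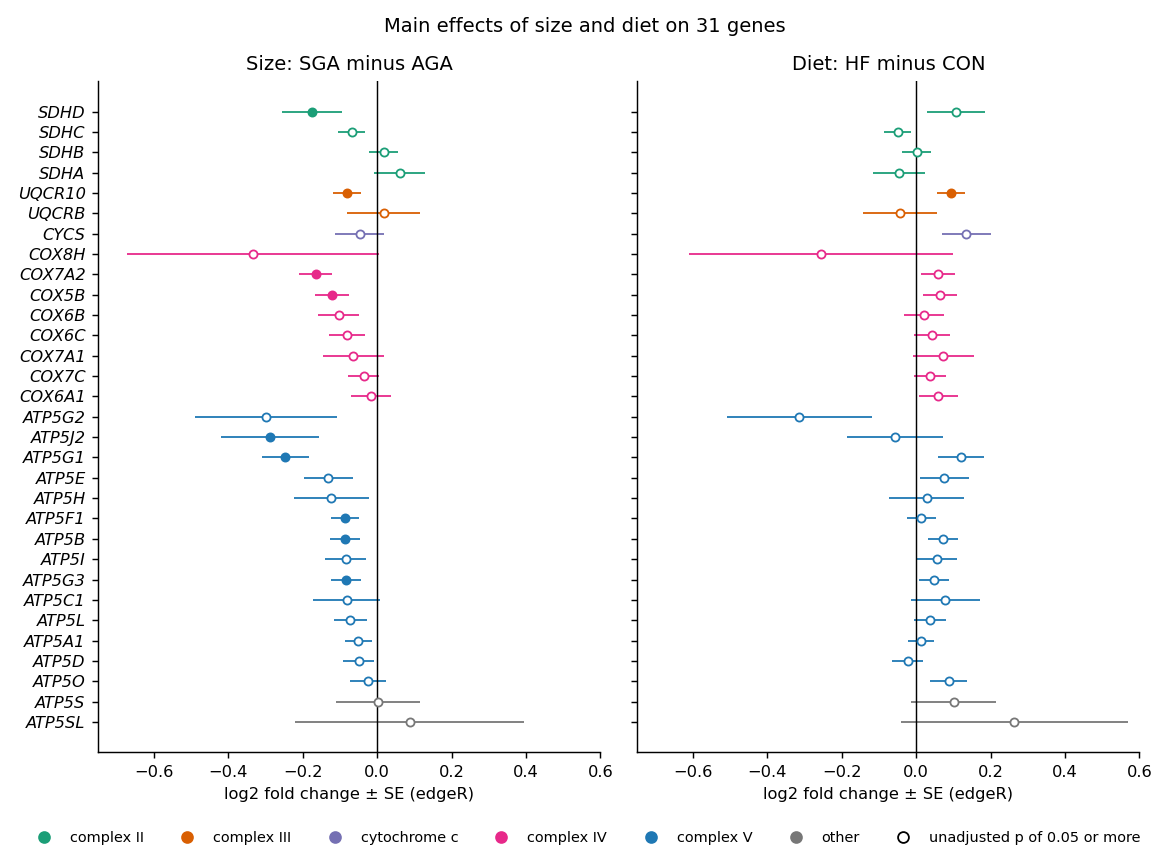
Log2 fold change with its SE from edgeR for size (SGA minus AGA, left) and diet (HF minus CON, right) for 31 genes, coloured by complex, with filled points for an unadjusted p under 0.05. For size, 26 of 31 points lie left of 0, with ATP5G1 at -0.25 and COX7A2 at -0.17, and for diet 24 of 31 lie right of 0.

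ATP5G1 had the smallest p of the members for size. It lies on chromosome 12 (Sscrofa10.2, chr12:25066551-25069489), with 5 exons and 890 bases of exon. In AGA piglets it ranged from 86.7 to 131 CPM (median 98.6, n = 12), and in SGA piglets from 73.3 to 108 CPM (median 86.8, n = 12). The groups overlapped, with AGA HF replicate 2 the highest and SGA CON replicate 3 the lowest of all libraries. The means were 101.4 ± 13 CPM in AGA and 87.8 ± 10 CPM in SGA piglets (SD), a log2 fold change of -0.25 (SE 0.06). With an FDR of 0.4004 it lay just outside the threshold (edgeR quasi-likelihood test). Without AGA CON replicate 2 it was inside, at -0.20 (edgeR FDR 0.284), though its unadjusted p rose from 0.000725 to 0.00188. The number of all genes called for size went from 78 to 382 there.

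Between littermates, ATP5G1 was lower in the SGA piglet in 11 of 12 litters, with a mean log2 difference of -0.20 ± 0.22 (SD) and a range from -0.58 to 0.06. An exact sign-flip test over the 12 litters, two-sided, gave p = 0.00391, and an FDR of 0.173 over all genes tested. The difference was larger in cohort 1 (-0.34 ± 0.20, 6 of 6 litters lower) than in cohort 2 (-0.07 ± 0.13, 5 of 6 lower), and this contrast between cohorts was not tested. The ratio of ATP5G1 to ATP5G3 per length had a median of 0.368 in AGA and 0.326 in SGA piglets and was lower in the SGA littermate in 9 of 12 litters.

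With the litter as a block in place of sex and the surrogate variables, ATP5G1 passed the threshold at a log2 fold change of -0.21 (edgeR, FDR 0.375). ATP5J2 passed it there as well, at -0.40 (edgeR, FDR 0.284). These were the 2 members called for size with the block, in which 1.52% of all genes were lower at that FDR. With the block the unadjusted p of ATP5G1 rose from 0.000725 to 0.00404 (edgeR), while all genes called for size went from 78 to 420. That of ATP5J2 fell from 0.0392 to 0.0016 (edgeR). The blocked FDR was taken over other contrasts, without those of diet, so FDR values with and without the block are not directly comparable. ATP5J2 encodes the f subunit in the membrane part of the enzyme (chr3:6655564-6667124). It ranged from 8.95 to 18.7 CPM (median 16.8) in AGA and from 8.70 to 14.9 CPM (median 11.4) in SGA piglets, on 53 to 153 counts per library. AGA CON replicates 1 and 6 and AGA HF replicate 6 lay among the lower SGA values, and the other 9 AGA values were above all SGA values but 1. Without the block its log2 fold change was -0.29 (SE 0.13, edgeR FDR 0.714).

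ATP5J2 was lower in the SGA littermate in 10 of 12 litters (mean log2 difference -0.39 ± 0.40), and the exact sign-flip test gave p = 0.00928 and an FDR of 0.228. Among SGA and AGA littermates on HF the blocked fit called it alone of the members, at -0.55 (edgeR, FDR 0.299), a comparison in which 0.472% of all genes were lower at that FDR. SDHD, a membrane anchor of complex II (chr9:44632268-44645249), was lower in 11 of 12 litters (-0.14 ± 0.18), with an exact sign-flip p of 0.0171 and an FDR of 0.278, which became 0.419 without the litter of SGA HF replicate 4. SDHD ranged from 36.8 to 53.8 CPM (median 48.4) in AGA and from 33.4 to 48.9 CPM (median 42.2) in SGA piglets, so most of the 2 ranges was shared. In edgeR's fit the fold change of SDHD was -0.18 (SE 0.08, FDR 0.714).

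ATP5G1, ATP5J2 and SDHD were the 3 of 31 members that were past an FDR of 0.4 in the exact littermate test, where 6.87% of all genes were lower at that FDR and 6.81% at an unadjusted p under 0.05. Without the litter of AGA CON replicate 2 these 3 and COX7A2 were past it. The smallest p this test allows is 0.000488. Together with ATP5E, they were also the 4 members lower in at least 10 of 12 litters, a count that 4.86% of all genes reached, and 0 members were higher in as many. In 1 of the 10 litters of ATP5E the difference rounded to 0.000, so it can as well be read as a tie. Averaged over litters, 25 of 31 members were lower in the SGA littermate. The mean difference was negative for 26 members in cohort 1 and for 20 in cohort 2, and for 17 on CON and 29 on HF.

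**Figure D3:**
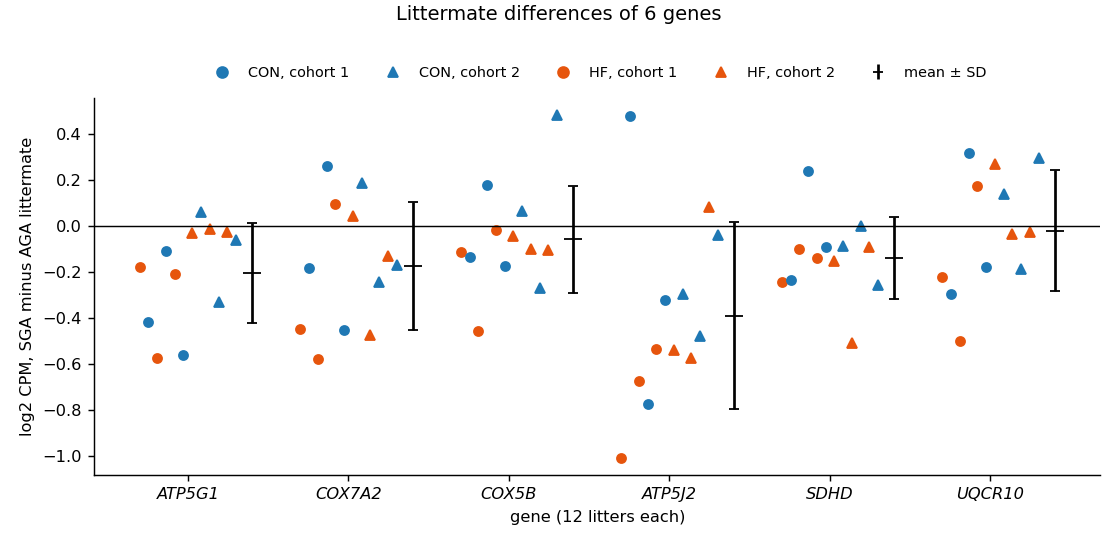
Difference in log2 CPM between the SGA and the AGA piglet of each litter for 6 genes, with colours for diet, symbols for cohort, and the mean ± SD over 12 litters beside the points. For ATP5G1, 11 of 12 points lie under 0 and the 3 lowest are of cohort 1, while those of COX5B and UQCR10 lie on both sides.

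COX7A2 had the second smallest p for size. It ranged from 99.2 to 172.5 CPM (median 127) in AGA and from 98.5 to 136.7 CPM (median 114) in SGA piglets. The 3 highest values all came from AGA HF piglets, and the lower ends of the groups coincided. Its log2 fold change was -0.17 (SE 0.05, edgeR FDR 0.428), or -0.14 (edgeR FDR 0.364) without AGA CON replicate 2, and 8 of 12 litters were lower in SGA (mean -0.18 ± 0.28, exact sign-flip p = 0.0552, FDR 0.412). The unadjusted p of COX7A2 rose from 0.00146 to 0.00488 without AGA CON replicate 2 (edgeR), while all genes called for size went from 78 to 382. COX7A1 had a log2 fold change of -0.06 (SE 0.08), with medians of 20.0 CPM in AGA and 18.8 CPM in SGA piglets. The ratio of COX7A1 to COX7A2 was lower in SGA in 4 of 12 litters.

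For COX5B the model and the plain values differed. AGA piglets ranged from 198 to 305 CPM (median 247) and SGA piglets from 195 to 325.9 CPM (median 228), with SGA CON replicate 6 the highest of all. The edgeR log2 fold change was -0.12 (SE 0.05, FDR 0.633), but the mean over littermates was -0.06 ± 0.23 with an exact sign-flip p of 0.409, although 9 of 12 litters were lower. COX6A1, the most abundant of the complex IV genes per length, had a log2 fold change of -0.02 (SE 0.05), with medians of 369 CPM in AGA and 377 CPM in SGA piglets.

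Other subunits with an unadjusted p under 0.05 for size were ATP5F1, of the stalk that holds the enzyme's head still (-0.09, SE 0.04), ATP5B (-0.09, SE 0.04), ATP5G3 (-0.08, SE 0.04) and UQCR10 (-0.08, SE 0.04). Their FDR values were between 0.685 and 0.729 (edgeR). ATP5B, the most abundant member in CPM, ranged from 520 to 845 CPM (median 690.4) in AGA and from 558 to 736 CPM (median 643) in SGA piglets. ATP5F1 ranged from 175 to 248 CPM (median 212) in AGA and from 172 to 221 CPM (median 195) in SGA piglets. In both genes the AGA range enclosed or nearly enclosed the SGA range.

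UQCR10 ranged from 88.1 to 145 CPM (median 114) in AGA and from 97.2 to 143 CPM (median 109) in SGA piglets, and littermates differed by -0.02 ± 0.26 on average. The fit gave higher values in SGA piglets for 5 members, which were SDHA (0.06, SE 0.07), SDHB (0.02, SE 0.04), UQCRB (0.02, SE 0.10), ATP5S (0.00, SE 0.11) and ATP5SL (0.09, SE 0.31), each smaller than its SE. SDHB was at 191 ± 15 CPM in AGA and 197 ± 21 CPM in SGA piglets. In plain values ATP5S was instead lower in SGA piglets, at 6.08 ± 1.2 CPM in AGA and 5.57 ± 0.74 CPM in SGA. Its littermates differed by -0.11 ± 0.31 on average, with 8 of 12 litters lower. ATP5G2 had the fitted value -0.30 (SE 0.19) although its plain means were alike, 3.26 ± 0.76 CPM in AGA and 3.32 ± 2.1 CPM in SGA piglets, where SGA CON replicate 6 reached 9.19 CPM.

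The litters differed in direction, and are named here by diet and replicate number. The median of the 31 members was lower in the SGA littermate in 8 of 12 litters and higher in 4, with a mean over litters of -0.06 ± 0.16 (SD). It was most negative in HF litter 2 (-0.40, 28 of 31 members lower), where the AGA littermate had the highest value of all 24 libraries for 13 of the 27 more abundant members. It was most positive in CON litter 2 (0.19, 7 of 31 lower), whose AGA littermate was the library with the lowest neuron markers and the lowest value for 8 of the 27.

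The summed neuron markers also differed between littermates. They were lower in the SGA littermate in the 4 litters with the most negative members, by -0.15 to -0.08 on the log2 scale, and higher in the other 8, by 0.01 to 0.83. In CON litter 2 the marker sum was 0.83 higher in the SGA piglet. By group the marker sum ranged from 4467 to 9319 CPM in AGA CON, from 5708 to 9073 in AGA HF, from 7696 to 10940 in SGA CON and from 7984 to 8924 in SGA HF. In edgeR's fit 4 of the 6 neuron markers were higher in SGA, with a median log2 fold change of 0.03, and 0 of 6 had an FDR under 0.4. The part of neuron content in the members' differences was not tested.

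Oligodendrocyte markers were lower in SGA piglets in the fit for 6 of 6, with a median of -0.17 and 0 past an FDR of 0.4. Their sum ranged from 17700 to 23190 CPM in AGA CON, from 13610 to 24930 in AGA HF, from 12360 to 18980 in SGA CON and from 11440 to 22480 in SGA HF, and none of them was at 0. Their part in the members' differences was not tested either. Genes with under 1000 bases of exon had a lower median in SGA in 8 of 12 litters, down to -0.16 in HF litter 2.

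**Figure D4:**
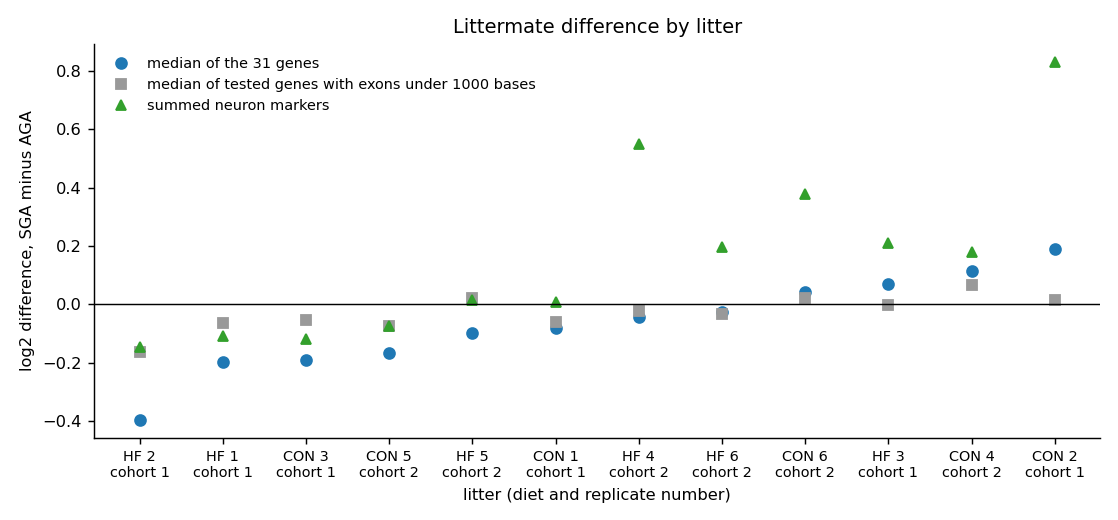
Log2 difference between SGA and AGA littermates for the median of the 31 genes, the median of all tested genes with under 1000 bases of exon, and the sum of 6 neuron markers, with litters ordered by the first. The median of the 31 genes runs from -0.40 in HF litter 2 to 0.19 in CON litter 2, and the neuron marker sum is under 0 in the 4 leftmost litters.

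The second comparison asked whether the HF formula altered these genes. In HF piglets 24 of 31 members were higher and 7 lower than in CON piglets, with a median log2 fold change of 0.05 against 0.00 over all genes. With edgeR 0 of 31 had an FDR under 0.4, where 0.159% of all genes did. This fit has no litter term, so littermates on the same formula enter its SE, p and FDR values for diet as separate units. At an unadjusted p under 0.05, 1 member was higher and 0 lower, against 3.59% of all genes higher and 3.51% lower. Compared between litters, the unit that received the diet, 21 of 31 were higher on HF, and 0 had an exact permutation p under 0.05 (6 against 6 litters, smallest possible p 0.00216).

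The direction of the diet difference rested on part of the litters. In cohort 1 alone 22 members were higher (median 0.07), and in cohort 2 alone 21 were lower (median -0.03). Without AGA CON replicate 2, 21 members were higher and the median was 0.03. Among all tested genes with under 1000 bases of exon 58.8% were higher on HF, with a median of 0.03, and among the 39 tested complex I genes 34 were higher, with a median of 0.06.

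UQCR10 was the member with an unadjusted p under 0.05 for diet (log2 fold change 0.09, SE 0.04, edgeR FDR 0.645). It did not keep that p without AGA CON replicate 2 (0.05, edgeR unadjusted p = 0.253) or without SGA HF replicate 4 (0.06, edgeR unadjusted p = 0.142). Its plain values were 88.1 to 143 CPM (median 111) on CON and 97.5 to 145 CPM (median 109) on HF, so the groups overlapped almost fully, and the difference between litter means was 0.02 (exact permutation p = 0.773). CYCS came next at 0.13 (SE 0.07, edgeR FDR 0.743), with 131 to 194 CPM (median 171.5) on CON and 148 to 224 CPM (median 178) on HF. Between litters CYCS differed by 0.10 (exact permutation p = 0.180). ATP5G1 (0.12, SE 0.06), ATP5B (0.07, SE 0.04) and ATP5O, which links the stalk to the catalytic head (0.09, SE 0.05), followed, with FDR values of 0.759 to 0.786 (edgeR). Without AGA CON replicate 2, the member with an unadjusted p under 0.05 for diet was ATP5G2, on the lower side (-0.38, edgeR unadjusted p = 0.0454). With counts summed by litter it was again ATP5G2 (-0.425, edgeR unadjusted p = 0.0451), while UQCR10 was at 0.018 (edgeR unadjusted p = 0.794).

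**Figure D5:**
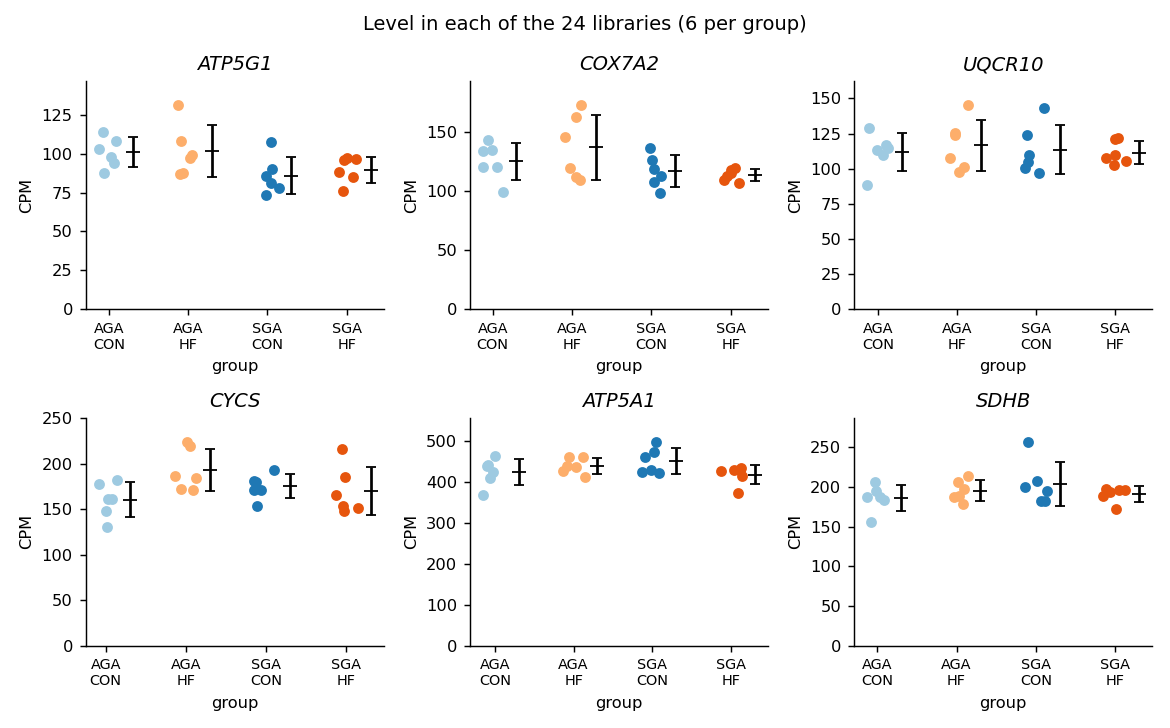
Level in CPM of 6 genes in each library, by group (6 piglets each), with the mean ± SD beside the points and axes from 0. The AGA HF values of CYCS lie mostly above those of AGA CON, and the 4 groups overlap for all 6 genes.

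The third comparison asked whether the size difference depended on diet. The interaction (the size difference on HF minus that on CON) was negative for 19 of 31 members, with a median of -0.02, and 0 had an FDR under 0.4 with edgeR, where 0.049% of all genes did. At an unadjusted p under 0.05 there was 1 member, ATP5A1, against 4.01% of all genes. For ATP5A1 the medians were 431.5 CPM in AGA CON (369 to 464), 439 CPM in AGA HF (412.5 to 462), 446 CPM in SGA CON (422 to 498) and 429 CPM in SGA HF (373 to 436). SGA piglets were thus the higher on CON and the lower on HF, with an interaction of -0.15 (SE 0.07, edgeR FDR 0.724). Without AGA CON replicate 2 it was -0.11 (edgeR unadjusted p = 0.193), and 0 members had a p under 0.05. COX7C (-0.13, SE 0.08) and UQCRB (0.29, SE 0.18) had the next smallest p, with FDR values of 0.807 and 0.819 (edgeR). With the litter as a block 25 of 31 were negative, with a median of -0.11, and 0 had an FDR under 0.4. The members with an unadjusted p under 0.05 were then CYCS (-0.32) and COX7C (-0.26), and ATP5A1 was at -0.16 (edgeR unadjusted p = 0.106).

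The 4 pairwise comparisons split these effects, and edgeR called 0 of 31 members in each. On CON, 24 members were lower in SGA (median -0.07), with 4 at an unadjusted p under 0.05, and the backgrounds were 0.129% of all genes at the FDR and 6.59% at that p. ATP5G1 led with -0.33 (SE 0.09, FDR 0.404, edgeR), followed by UQCR10, COX7A2 and SDHC. Without AGA CON replicate 2 the 4 became 1, which was ATP5G1 (-0.28, edgeR FDR 0.321). Its unadjusted p rose there from 0.000971 to 0.00291 (edgeR), while all genes called on CON went from 21 to 128. With the litter as a block 18 members were lower on CON, with a median of -0.01, and ATP5G1 alone kept an unadjusted p under 0.05. In cohort 2 alone 13 were lower there, with a median of 0.02. On HF, 28 members were lower in SGA (median -0.10), with 4 at an unadjusted p under 0.05, namely COX7A2 (-0.18, SE 0.06), ATP5A1 (-0.12, SE 0.05), SDHD (-0.25, SE 0.11) and ATP5J2 (-0.40, SE 0.18). The backgrounds there were 0.288% and 8.02%. With the litter as a block 29 members were lower on HF, with a median of -0.13. The members with an unadjusted p under 0.05 were then ATP5J2, COX7C, SDHD, COX7A2 and COX6C (edgeR). Without AGA CON replicate 2 they were ATP5J2, COX7A2, COX7C and SDHD, so ATP5A1 kept such a p in neither.

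HF against CON among AGA piglets gave 25 higher members (median 0.05) and 1 at an unadjusted p under 0.05, where the backgrounds were 0.0674% at the FDR and 6.09% at that p. This gene was CYCS (0.23, SE 0.09, edgeR FDR 0.657), at 131 to 183 CPM (median 162) in AGA CON and 171 to 224 CPM (median 185) in AGA HF, where 4 of the 6 AGA HF values exceeded every AGA CON value. Without AGA CON replicate 2 there were 3, COX7C (0.16), CYCS (0.20) and ATP5I (0.14). Among SGA piglets 22 were higher (median 0.03), with 2 at an unadjusted p under 0.05, UQCR10 (0.14, SE 0.05) and ATP5G1 (0.20, SE 0.09), and the backgrounds were 0.0919% and 5.16%. Without AGA CON replicate 2 or without SGA HF replicate 4, 19 were higher and neither gene kept such a p, while ATP5G2 fell under it on the lower side without the former (-0.56). With 0 surrogate variables, or with a cohort term in their place, the direction turned, with 24 members lower and a median of -0.04. The pairwise comparisons share groups with each other, and these values are given side by side for that reason.

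Genes that build or control the complexes were read from lists of their symbols. Of 47 assembly factors written, 21 were found and tested, 11 lower and 10 higher in SGA piglets, with a median of -0.02 and 0 past an FDR of 0.4. SDHAF1, which helps insert the iron-sulfur centres of complex II, had the smallest p, with 28.6 ± 3.0 CPM in AGA and 25.8 ± 2.0 CPM in SGA piglets (log2 fold change -0.18, SE 0.06, edgeR FDR 0.588). FMC1 (-0.25, SE 0.13) and TTC19 (0.23, SE 0.12), which act on complexes V and III, came next. For diet 13 of 21 were higher (median 0.03), led by TACO1, an activator of the translation of a complex IV subunit (0.21, SE 0.10, edgeR FDR 0.707), with SDHAF1 at 0.11 (SE 0.06) and PET117 at -0.33 (SE 0.23).

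Of 11 transcriptional regulators 10 were listed and 9 tested, since NRF1 stayed under the filter with at most 0.773 CPM. For size 6 were lower and 3 higher, and for diet 5 lower and 4 higher, with 0 past an FDR of 0.4 in either. TFAM, which packages and transcribes the mitochondrial genome, had a log2 fold change of 0.60 for size (SE 0.28, edgeR FDR 0.724), at 0.662 ± 0.20 CPM in AGA and 0.877 ± 0.48 CPM in SGA piglets, near the detection floor. PPRC1, a coactivator related to PGC-1, was at 41.1 ± 2.3 CPM in AGA and 44.6 ± 3.9 CPM in SGA piglets (0.11, SE 0.06), and GABPA, a subunit of a factor that binds many of these genes' promoters, was 0.10 (SE 0.07) for size and -0.14 (SE 0.08) for diet. For diet, YY1 (0.14, SE 0.19) and ESRRA (-0.04, SE 0.06) followed GABPA.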

How the data were processed

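The deposited files hold whole-number read counts per gene for 24 libraries of polyadenylated RNA. Per the methods and the submitters' processing notes, the authors trimmed single-end stranded reads (Trimmomatic 0.33), aligned them to Sscrofa10.2 with STAR 2.5.2a and counted exon reads by strand for each Entrez gene with featureCounts (Subread 1.5.0), without normalization. Reads from near-identical gene copies may be lost or split in such counts. An entry without an identifier, 0.613 to 1.62% of a library, was left out. Symbols came from a table of another assembly matched on the gene identifier (23036 of 38882 matched, 15993 with a symbol), and coordinates are those of the files, with each chromosome taken from the majority of its genes in that table.

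Counts were TMM-normalized, and the 16326 genes that reached 1 CPM in 3 or more libraries were fitted with edgeR 4.0.16 (glmQLFit, glmQLFTest; R 4.3.3) on 4 groups, sex and 5 surrogate variables (sva 3.50.0), with the FDR over 7 contrasts together and a threshold of 0.4, as the study set it for its genes. A voom fit with the same terms was run as an alternative (limma 3.58.1), with DESeq2 1.42.0. The voom fit called 53 genes for size and 10 for diet, fewer than the paper reported for each. The paper's filter also kept more genes. The study's own calls were thus not reproduced here, and the cause was not tested. The fit with the litter as a block took its FDR over its own contrasts, namely size, the interaction and size on each diet. CPM use TMM-scaled totals, and exact tests used log2 CPM with a prior count of 2, adjusted over all genes tested. The sign-flip test compared littermates, and the permutation test of litter means compared diets, both two-sided. The scripts were tested on simulated counts. A common biological coefficient of variation of 0.117 was estimated.

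The litter pairs come from the labels (an SGA and an AGA piglet sharing a pair number), and littermates' deviations from their group means correlated at 0.154 on average (0.014 to 0.329 over 12 pairs). Whether different pairs came from different sows is not given in the sources used here, and the 12 litters were taken as independent. Named members were those with an FDR under 0.4, the smallest p for size (5), diet (5) and interaction (3), the highest and lowest level per length in each complex, and isoform pairs, and for the other lists the 3 smallest p. ATP5J2 and ATP5G3 fall outside this rule and were added after their values were seen, as were other members named only for a level or a count. The members and lists were chosen with earlier results of these data known.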

Additional observations from a re-analysis of the deposited data

Results flagged for a closer look

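In 80 sets of 6 libraries (20 named genes in 4 groups), 5 had a highest or lowest library that stood apart by Dixon's test, and chance alone gives about 1 in 20. ATP5A1 was at 373 CPM in SGA HF replicate 3, under the 415 to 436 CPM of the other 5 libraries of that group. SDHB was at 256 CPM in SGA CON replicate 6, above the other 5 at 182.5 to 207 CPM, and at 172.5 CPM in SGA HF replicate 1, under the other 5 at 189 to 198 CPM. SDHD was at 36.8 CPM in AGA HF replicate 3, under the other 5 at 47.5 to 53.8 CPM. ATP5G2 was at 2.10 CPM in AGA CON replicate 2, the library with the lowest neuron markers, under the other 5 at 3.36 to 3.92 CPM, on 14 counts.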

How the results depend on the processing

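Over the alternatives run, the median of the members went from -0.12 to -0.04 for size. For diet it changed sign, from -0.03 in cohort 2 alone to 0.07 in cohort 1 alone. Each moved by less than the SD between single litters (0.161 for size, 0.079 for diet). This SD is wider than the error of a mean over litters, so a smaller move does not show stability. The number of members past the FDR of 0.4 for size, 0 as reported, was 3 with the FDR over each contrast alone (ATP5G1, COX7A2, COX5B), 1 with DESeq2 size factors or with no filter on low counts (ATP5G1), 2 with the DESeq2 test (ATP5G1, COX7A2) and 2 with the litter as a replicate block (ATP5J2, ATP5G1). Over all genes the number past it for size was 78 as reported and 1200 with the FDR over each contrast alone. It was 108 with DESeq2 size factors, 124 with no filter, 210 with the DESeq2 test and 420 with the block. The member count stayed at 0 with limma-voom (53 genes called in all), 0 surrogate variables (13), a cohort term (106) and within either cohort (0). In the 4 pairwise comparisons 1 was called with DESeq2 size factors, no filter or the DESeq2 test (ATP5G1 on CON) and 1 with the replicate block (ATP5J2 on HF). Over all genes the number on CON was 21 as reported and 29, 27 and 57 in these runs, in that order. On HF it was 47 as reported and 145 with the block. The block or litter sums changed no other call. For diet and the interaction the count was 0 throughout. Leaving out a library was chosen after seeing the data. Without AGA CON replicate 2, 2 were called for size (ATP5G1, COX7A2) and 1 on CON (ATP5G1), and without SGA HF replicate 4, 0 and 0. Over all genes the calls for size and on CON were 382 and 128 without the former, and 50 and 19 without the latter. The exact littermate test called 3 as reported, 4 without the litter of the former and 2 without that of the latter.

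In cohort 2 alone the size value turned to 0.009 for COX5B and 0.077 for UQCR10, the diet value to -0.017 for ATP5G1, -0.061 for both UQCR10 and CYCS and -0.029 for ATP5B, and the interaction of UQCRB to -0.092. The diet value of ATP5B was -0.024 without AGA CON replicate 2 and 0.045 without SGA HF replicate 4. The cause was not tested. Depth limits COX8H, ATP5G2 and ATP5SL, which had as few as 1, 14 and 4 counts in a library.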
